A study of Mus musculus with 6 samples.

Results

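The genes described here are the 8 constant region genes of the immunoglobulin heavy chain, Ighm, Ighd, Ighg1, Ighg2b, Ighg2c, Ighg3, Igha and Ighe. They were picked by gene symbol, each has 1 row in the deposited expression table, and they are 8 of its 33679 genes. Levels are in FPKM, a value scaled to transcript length and to library size. Levels of different genes can be set side by side only as far as the length used for each, which is not given, is apt.

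The tissue was mouse kidney after unilateral ureteral obstruction, in which urine outflow from one kidney is blocked by tying and the organ becomes fibrotic; obstruction was common to both groups. One group carried a Cd248 knockout and the other was wild type at Cd248, a gene that encodes endosialin, a surface glycoprotein of fibroblasts and pericytes. The labels name 3 samples per genotype, of which 1 knockout library (replicate 1) and the 3 wild type libraries have a value column in the table used here; the other two knockout samples were not analysed here. Wild type values are given below in the order of replicates 1, 2 and 3. The labels give no strain, age, sex, days of obstruction or kind of knockout allele, and their library protocol speaks of pooled RNA, so the spread between wild type libraries may be technical. The series title points to mechanical signalling in scar-forming fibroblasts, and antibody genes are not named as a purpose of the comparison.

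An antibody heavy chain joins a variable part, which binds antigen, to a constant part, which sets the class: Ighm gives IgM, Ighd IgD, the Ighg genes the IgG subclasses, Igha IgA and Ighe IgE. A naive B cell makes IgM and IgD together by alternative splicing of one long transcript. Class switching cuts out the DNA from Ighm up to a downstream constant gene, Ighm included. An antibody-secreting plasma cell then makes very large amounts of the RNA of its class. Dimeric IgA and pentameric IgM are joined by the J chain.

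On mm10 the genes lie on the minus strand of chromosome 12, within 113254830 to 113422730, in the 5′ to 3′ order Ighm, Ighd, Ighg3, Ighg1, Ighg2b, Ighg2c, Ighe and Igha (GENCODE release M21, matched by gene identifier). Each has 2 annotated transcripts, in general a shorter secreted form and a longer membrane form, and the table gives 1 value per gene, so the forms are not told apart. The IgG subclasses resemble each other, which matters for whether a read can be given to 1 of them. Their hinge exon, the flexible link between the arms and the stem of the antibody, is where they differ most visibly and is shown for that reason, 5′ to 3′ on the coding strand. Capitals mark bases that lie in a window of 12 bases also found in the transcripts of another heavy chain constant gene.
Ighg1 exon 2, chr12:113329844-113329882, minus strand: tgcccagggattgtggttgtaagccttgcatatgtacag
Ighg2b exon 2, chr12:113307261-113307326, minus strand: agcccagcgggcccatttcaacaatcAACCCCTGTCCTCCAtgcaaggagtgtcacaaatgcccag
Ighg2c exon 2, chr12:113288263-113288325, minus strand: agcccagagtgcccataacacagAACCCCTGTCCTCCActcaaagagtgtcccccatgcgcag
Ighg3 exon 2, chr12:113360529-113360576, minus strand: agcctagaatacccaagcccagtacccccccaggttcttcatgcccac

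The hinges have 39, 66, 63 and 48 bases in Ighg1, Ighg2b, Ighg2c and Ighg3, and Ighg2b and Ighg2c alone share marked bases, 15 in each. The longest stretch common to 2 of the secreted transcripts has 78 bases and lies in coding exon 3 of the same pair (chr12:113306869-113306946 in Ighg2b, chr12:113287869-113287946 in Ighg2c). It is shown because a read falling wholly inside it fits both genes equally.
Ighg2b and Ighg2c exon 3: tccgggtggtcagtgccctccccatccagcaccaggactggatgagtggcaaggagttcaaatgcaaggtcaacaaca

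Over their aligned bases the secreted transcripts of Ighg2b and Ighg2c were 86.4% identical, the other IgG pairs 75.0% to 77.0%. Of the windows of 50 bases in each secreted transcript, 5.26% (Ighg2b) and 5.27% (Ighg2c) also occur in the transcripts of the other, and 0 do for the remaining genes, against all annotated transcripts. No window of 100 bases was shared. The sources used here do not give the read length or how reads fitting several genes were treated, so the split between Ighg2b and Ighg2c carries more uncertainty than the other values.

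The libraries were checked before the comparison. Cd248, the targeted gene, was listed at 0 FPKM with the knockout and lay between 8.78 and 9.57 FPKM without it, which fits the labels. Kidney tubule markers were present in every library, with a summed level of 4171 FPKM with the knockout and 1441 to 5120 FPKM in wild type. Kap alone made up most of that sum, at 3453 FPKM with the knockout and 1006 to 4294 FPKM in wild type. Read depth is unknown, since low FPKM values fell on no steps of whole reads, and so no counting error is given.

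Heavy chain constant RNA was far more abundant in the knockout library, and its make-up differed: IgA and IgG RNA stood very high, IgM RNA rose less and IgD RNA was at the wild type level. The 8 genes summed to 2029 FPKM in the knockout library, while their sums in wild type were 66.2, 59.3 and 50.2 FPKM. The knockout value is 34.6 times the wild type mean of 58.6 ± 8.04 FPKM (SD, n = 3). They made up 0.666% of all FPKM in the knockout library and 0.0176% to 0.0248% in wild type. With 1 knockout library, its value has no replicate check, and more antibody-making cells cannot be told apart from more RNA per cell in whole tissue.

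**Figure D1:**
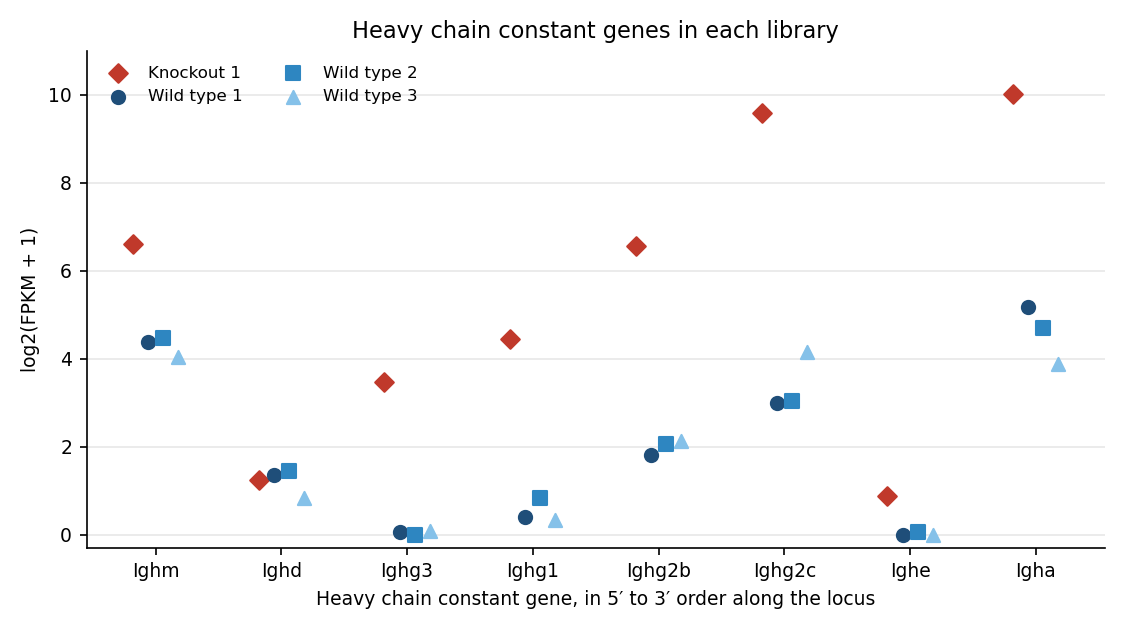
Level of each heavy chain constant gene as log2(FPKM + 1), by library, with genes in their order along the locus. The knockout library (diamond) lies above all wild type libraries for every gene but Ighd, where it lies between them.

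Igha, the IgA constant region (chromosome 12, 113254830 to 113260236), had the highest level in the knockout library, at 1042 FPKM. The wild type libraries were at 35.1, 25.1 and 13.7 FPKM, a range of 2.56 times between the highest and the lowest. By level among all genes of a library, Igha ranked 24 with the knockout; its wild type ranks were 1040, 1640 and 3403. The groups do not overlap, and the rise was 5.44 in log2(FPKM + 1), with SE 0.52 and a limma adjusted p of 0.0457. The call was lost without any one of the wild type libraries (adjusted p of 0.142, 0.196 and 0.0792 without replicate 1, 2 and 3), with differences of 5.09 to 5.73.

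Ighg2c, an IgG constant region of some mouse strains (others carry the related Ighg2a instead), had the largest difference of the 7 tested on the log2(FPKM + 1) scale. Lying at 113285325 to 113288932 on chromosome 12, it reached 765 FPKM with the knockout, whereas the wild type levels were 6.90, 7.24 and 16.7 FPKM. Wild type replicate 3 stood apart here, with a level well above the others, yet the knockout value was far above it. Ighg2c rose by 6.19 (SE 0.52, limma adjusted p = 0.0313), which is 74.4 times the wild type mean. The adjusted p was 0.214 without replicate 1, 0.121 without replicate 2 and 0.0273 without replicate 3.

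Ighg2b, another IgG subclass (chromosome 12, 113302965 to 113307933), was at 92.8 FPKM against wild type levels of 2.50, 3.20 and 3.34 FPKM. The wild type values were close together, with an SD of 0.45 FPKM. It rose by 4.55 (SE 0.15, limma adjusted p = 0.0034), 30.8 times the wild type mean, and passed without each wild type library in turn.

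Ighg1 (chromosome 12, 113325240 to 113330523), a subclass tied to help by type 2 T cells, was at 20.9 FPKM against 0.31, 0.79 and 0.25 FPKM. It rose by 3.94 (SE 0.25, limma adjusted p = 0.0153), and lost the call without replicate 1 (0.139) or replicate 3 (0.119). Ighg3 (chromosome 12, 113356224 to 113361232), a subclass known from responses to bacterial polysaccharides, was at 10.1 FPKM against 0.05, 0 and 0.06 FPKM. Its difference was 3.42 (SE 0.13, limma adjusted p = 0.0040). The wild type means of both genes were below 0.5 FPKM, the filter on low values, and the genes entered the test through the knockout library, so a difference was built into their being tested. With a pseudocount of 0.1 FPKM the differences were 5.38 and 6.25 and neither passed (adjusted p of 0.111 and 0.0707).

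Ighm (chromosome 12, 113418558 to 113422730), the IgM constant region and the first class a B cell makes, showed the smallest rise on this scale among the genes that passed. It was at 95.7 FPKM against 19.8, 21.2 and 15.3 FPKM, which is 5.10 times the mean. The difference was 2.30 (SE 0.20, limma adjusted p = 0.0332), and the call was lost without any one of the wild type libraries (0.234, 0.105 and 0.0662 without replicate 1, 2 and 3).

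Ighd, the IgD constant region carried by naive B cells (chromosome 12, 113406604 to 113416324), had a knockout level of 1.35 FPKM and wild type levels of 1.55, 1.74 and 0.77 FPKM. The knockout value lies inside the wild type range. The difference was 0.023 (SE 0.29, limma adjusted p = 0.985), and its sign turned when libraries were scaled to the same FPKM total (-0.055). Ighe, the IgE constant region (chromosome 12, 113269260 to 113273248), was at 0.83 FPKM with the knockout, listed at 0 in wild type replicates 1 and 3 and at 0.05 FPKM in replicate 2. Its mean of 0.22 FPKM over the 4 libraries was under the filter, so it was not tested in the main fit.

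Of the 8 genes, 7 passed the filter and 6 were called higher, where 0.64% of the 16871 tested genes were called higher. None was called lower, against 0.083% of tested genes, and 0.723% were called in either direction. The knockout library was above every wild type library for 6 of the 7, against 28.0% of tested genes, and below every wild type library for 0 of the 7, against 31.2%. The median difference of the 7 was 3.94, beside -0.0064 over all tested genes. Because Ighg1 and Ighg3 entered through the knockout library, these counts describe the genes and support nothing by themselves. The 6 calls became 2 without wild type replicate 1 (Ighg2b and Ighg3), 3 without replicate 2 (Ighg1, Ighg2b and Ighg3) and 3 without replicate 3 (Ighg2b, Ighg2c and Ighg3). With all other immunoglobulin genes left out of the fit, 2 passed (Ighg2b, adjusted p = 0.0146, and Ighg3, 0.0185), where 0.0299% of genes were called higher, 0.00599% lower and 0.0359% in either direction. With a pseudocount of 0.1 FPKM Ighg2b alone passed, with adjusted p for Ighm, Ighg2c and Igha of 0.0740, 0.0753 and 0.0888, and Ighg1 and Ighg3 at the values given above. With no filter on low values all 8 were tested and 3 passed, which were Ighg2b (0.0345), Ighg3 (0.0322) and the newly tested Ighe, while the other four of the 6 calls were lost, at 0.0677 to 0.130. With quantile normalization 4 passed, as Ighg2c (0.0533) and Igha (0.0650) were lost, and with no mean-variance trend 5 passed, as Igha (0.0550) was lost.

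By the marks in the authors' deposited table, 5 of these genes are significant and up, with q-values listed as 0: Igha at a fold of 42.29, Ighg2c at 74.37, Ighg1 at 46.33, Ighg2b at 30.8 and Ighm at 5.1. For Ighg3 the authors' deposited table gives a fold of 296.03 with a q-value of 1 and no mark, and for Ighe a fold of 55.07 with a q-value of 1. Ighg3 thus passed limma's test here and not the authors' test.

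**Figure D2:**
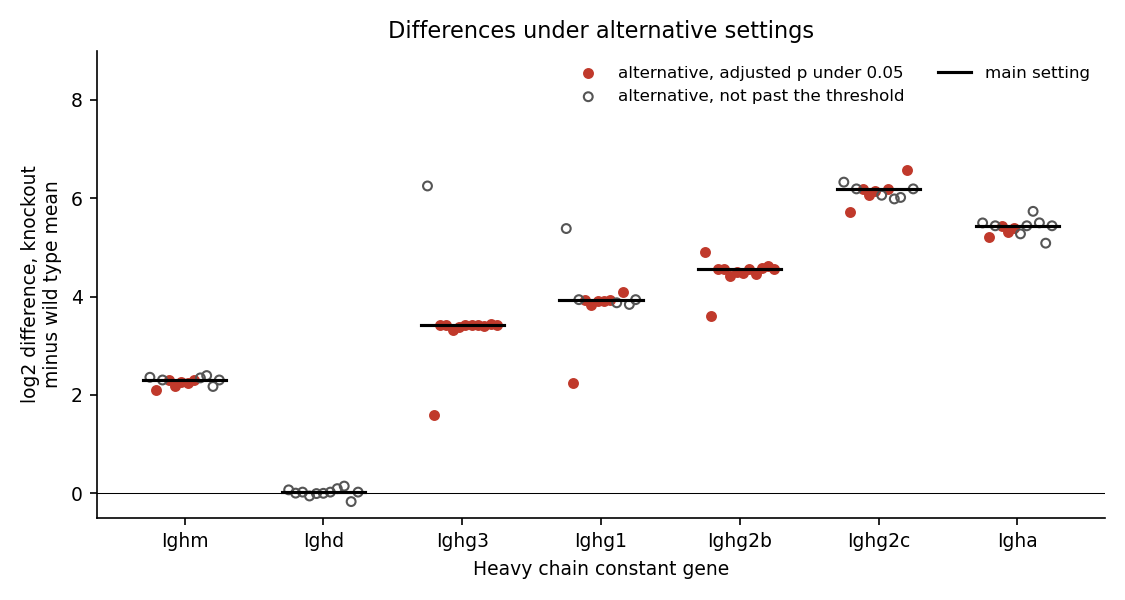
Difference in log2 level for each tested heavy chain constant gene, at the main setting (line) and under each alternative (filled where limma's adjusted p was under 0.05, open otherwise). The differences of Ighg1 and Ighg3, low in wild type, moved most, with the pseudocount, and Ighg2b passed under all 12 alternatives.

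The order of the classes differed between the groups. In wild type the means ran from Igha (24.6 ± 10.7 FPKM, SD, n = 3) through Ighm (18.8 ± 3.06) and Ighg2c (10.3 ± 5.57) to Ighg2b (3.01 ± 0.45), Ighd (1.35 ± 0.51), Ighg1 (0.45 ± 0.30), Ighg3 (0.037 ± 0.032) and Ighe (0.017 ± 0.029). The ranges of Igha, Ighm and Ighg2c overlap each other, as do those of Ighd and Ighg1 and of Ighg3 and Ighe. Ighg2b lies clear of Ighg2c above it and of Ighd below it. In the knockout library the order was Igha, Ighg2c, Ighm, Ighg2b, Ighg1, Ighg3, Ighd and Ighe, with Ighm and Ighg2b close to each other and both far below Ighg2c.

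As shares of the summed constant FPKM, which is how the rest of the composition is given, the knockout library was dominated by IgA and IgG2c. Igha held 51.4% and Ighg2c 37.7% of the sum, together 89.1%. In wild type the pair held 63.5%, 54.6% and 60.7%. The pair stood 29.5 percentage points above its wild type mean, and Ighm plus Ighd stood 29.5 points below theirs. Knockout minus wild type mean, with Ighm and Ighd left out of the sum, was 11.5 points for Ighg2c and -8.55 for Igha. Shares of a sum are tied to each other, so a class can lose share while its own level goes up, as Ighm did.

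Ighm held 4.72% of the sum in the knockout library, against 29.9%, 35.7% and 30.5% in wild type. Ighd made up 0.0665% in the knockout library against 2.34%, 2.93% and 1.54%. Both shares lie well below the wild type range, although the FPKM of Ighm was above it and that of Ighd inside it.

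The share of Ighg2c in the knockout library lay just above a wide wild type range of 10.4%, 12.2% and 33.3%. The wild type mean was 18.6% ± 12.7 (SD, n = 3), and replicate 3 was the highest of the wild type libraries. Igha, at 53.0%, 42.3% and 27.4% in wild type, had a knockout share inside the wild type range. The IgG genes together held 43.8% in the knockout library, and their wild type shares were 14.7%, 18.9% and 40.6%, so replicate 3 lay near the knockout library and apart from the other two.

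The remaining classes were small. Ighg2b held 4.57% in the knockout library against 3.78% to 6.66%, and Ighg1 1.03% against 0.468% to 1.33%, both inside the wild type range. Ighg3 held 0.497% against 0% to 0.120%, above the range, and Ighe 0.0409% against 0% to 0.0843%.

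**Figure D3:**
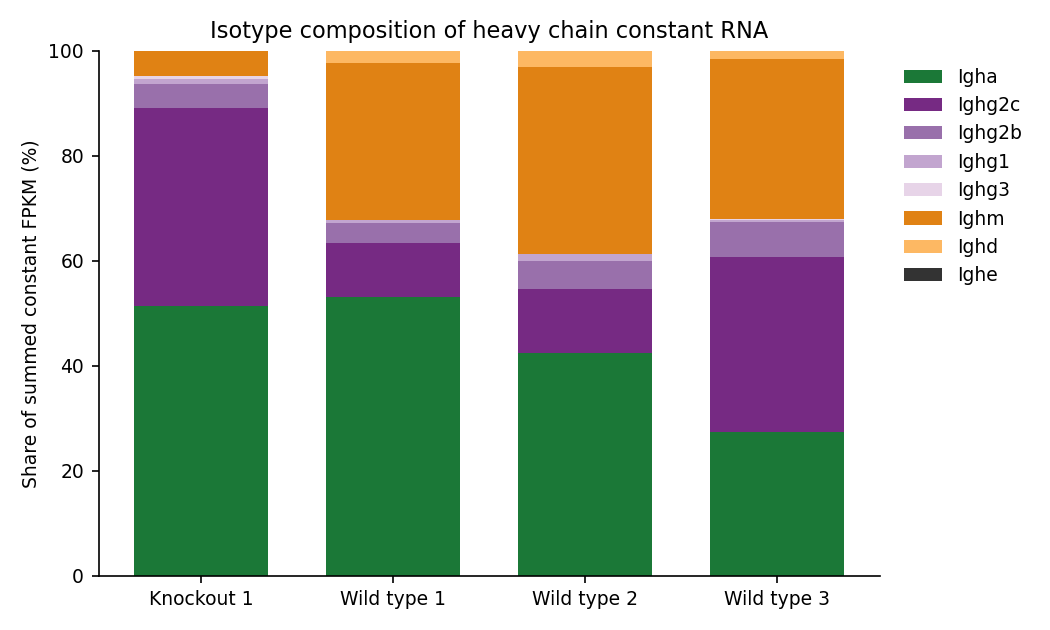
Share of the summed heavy chain constant FPKM held by each gene, in percent, for each library. The orange part (Ighm and Ighd) fills 4.78% of the bar in the knockout library and 32.1% to 38.6% in wild type, while the green part (Igha) and the purple part (IgG) trade places among the wild type libraries.

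Ratios within a library show the same without the sum, and they do not change when a library is rescaled. Switched RNA, the sum of the IgG genes, Igha and Ighe, was 20.2 times Ighm with the knockout, and in wild type the ratios were 2.27, 1.72 and 2.23. The wild type ratios are close together at 2.07 ± 0.31 (SD, n = 3), and the knockout ratio is 9.74 times their mean. Ighm itself was 70.9 times Ighd with the knockout, against 12.8, 12.2 and 19.9 times in wild type. No test is given for these ratios, since a permutation of 1 library against 3 cannot give a p below 0.25.

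The balance between IgA and IgG did not separate the groups. Igha was 1.17 times the IgG sum in the knockout library, inside the wild type values of 3.60, 2.24 and 0.674. Within IgG, Ighg2c held 86.1% with the knockout, against 70.7%, 64.5% and 82.1% in wild type, so it was the leading subclass in every library. Ighg2b held 10.4% of IgG against 16.4% to 28.5%. Ighg2c was 8.25 times Ighg2b with the knockout, against 2.76, 2.26 and 5.00 times in wild type, for the pair whose split is least certain. Ighg1 held 2.36% of IgG, inside the wild type range of 1.23% to 7.03%.

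**Figure D4:**
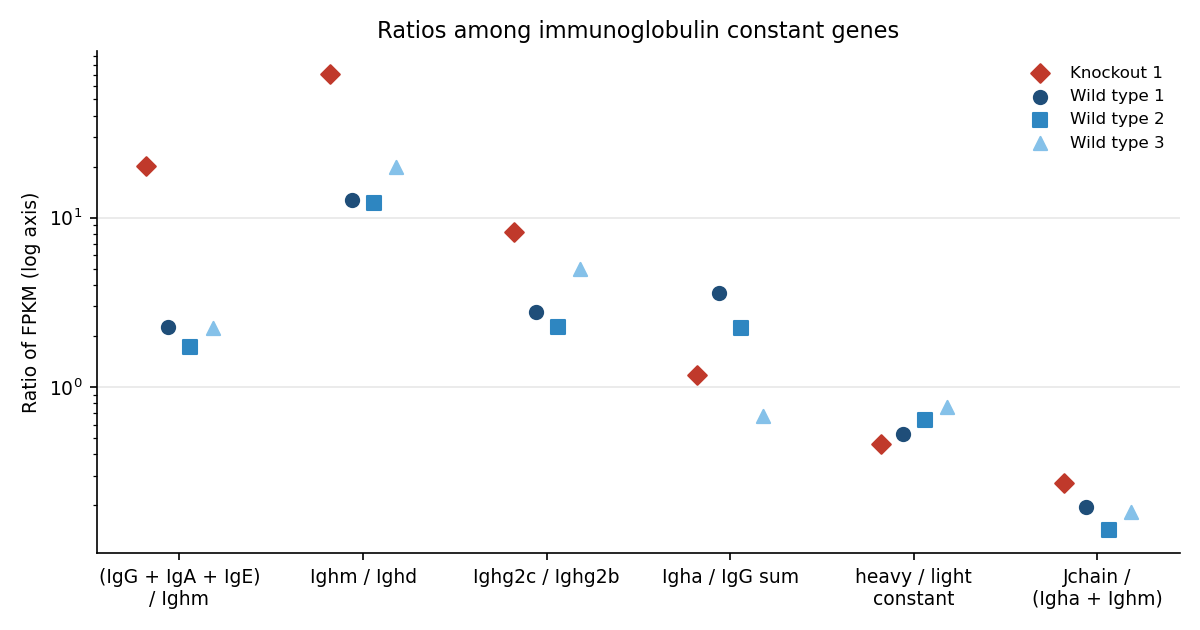
Ratios of FPKM among immunoglobulin constant genes and Jchain in each library, on a log axis. The knockout library (diamond) is clear of the wild type libraries for switched RNA over Ighm and for Ighm over Ighd. It is also above them for Ighg2c over Ighg2b and for Jchain over Igha plus Ighm, and below them for heavy over light constant. It lies among them for Igha over the IgG sum.

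The light chain constant genes, whose protein pairs with the heavy chain, rose alongside. There are 5 such genes; Iglc4 was listed at 0 in every library, and the 4 tested were all called higher (median difference 4.76). Igkc, the kappa constant region, was at 4153 FPKM against 119, 89.2 and 61.7 FPKM (5.56, SE 0.39, limma adjusted p = 0.0190), and lost the call without any one of the wild type libraries (0.0766, 0.106 and 0.0738). Iglc1, a lambda constant region, was at 203 FPKM against 2.90, 2.25 and 2.10 FPKM (5.90, SE 0.16, limma adjusted p = 0.0030) and kept its call under all alternatives run. Iglc3 did so too, at 16.4 FPKM against 1.06, 1.12 and 1.07 FPKM (3.06, limma adjusted p = 0.0032). Iglc2, at 32.8 FPKM against 1.93, 0.93 and 0.81 FPKM (3.96, limma adjusted p = 0.0279), lost the call without replicate 2 (0.109) or 3 (0.167). The lambda constant genes resemble each other closely, so the split between them is uncertain. Heavy chain constant RNA was 0.461 times light chain constant RNA with the knockout, against 0.528, 0.635 and 0.763 times in wild type, so light chains outweighed heavy chains in each library, and most in the knockout library. Kappa made up 94.3% of light chain constant FPKM, inside the wild type range of 93.9% to 95.4%.

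The heavy chain joining segments, short exons spliced to the constant region, were tested for 4 of 4 genes and 3 were called higher. Ighj3 was at 425 FPKM against 6.03, 5.07 and 6.47 FPKM (5.96, limma adjusted p = 0.0024) and Ighj4 at 579 FPKM against 14.6, 13.5 and 9.61 FPKM (5.44, limma adjusted p = 0.0067; 0.0614 without wild type replicate 1). Ighj2 was at 182 FPKM against 7.95, 3.23 and 3.43 FPKM (limma adjusted p = 0.0456), and lost the call without replicate 2 (0.145) or 3 (0.262). Ighj1, at 221 FPKM against 14.2, 15.5 and 3.86 FPKM, did not pass (0.235; 0.0335 without replicate 3). FPKM of such short segments is uncertain.

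Genes that assemble and carry polymeric antibody divided, with 2 of the 3 tested called higher. Jchain, which links IgA and IgM units, was at 310 FPKM against 10.7, 6.60 and 5.29 FPKM (5.24, SE 0.37, limma adjusted p = 0.0195; 0.0987 and 0.119 without wild type replicate 2 or 3). Mzb1, an endoplasmic reticulum chaperone of antibody-secreting cells, was at 17.6 FPKM against 1.20, 1.24 and 1.35 FPKM (3.04, SE 0.10, limma adjusted p = 0.0034). Pigr, the epithelial receptor that carries IgA and IgM across the cell, was at 25.7 FPKM, inside the wild type range of 23.9 to 30.6 FPKM. Jchain stood at 0.272 times the sum of Igha and Ighm with the knockout, against 0.195, 0.143 and 0.182 times in wild type.

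Of 20 genes of the antibody secretion program 19 were tested, 3 were called higher and 16 did not pass. The knockout library was above every wild type library for 17 of the 19, against 28.0% of all tested genes. It was below every wild type library for 2, against 31.2% of tested genes. Those were Sdc1 (18.5 FPKM against 32.1, 24.0 and 19.2 FPKM) and Hspa5 (75.8 FPKM against 91.6, 87.0 and 89.9 FPKM). Neither passed (limma adjusted p of 0.680 and 0.484). Pou2af1, a B cell transcription coactivator, was at 9.56 FPKM against 0.65, 0.80 and 0.58 FPKM (2.66, limma adjusted p = 0.0090; 0.0866 and 0.0738 without wild type replicate 1 or 3). Derl3, a protein of endoplasmic reticulum quality control, was at 4.82 FPKM against 0.69, 0.73 and 0.63 FPKM (1.79, limma adjusted p = 0.0166), and Tent5c, a poly(A) polymerase that stabilises antibody RNA, at 5.78 FPKM against 2.30, 2.27 and 2.18 FPKM (1.06, limma adjusted p = 0.0407). Derl3 and Tent5c lost their calls without any one of the wild type libraries (adjusted p of 0.0852 to 0.122 and of 0.195 to 0.232). Xbp1, the transcription factor of secretory cells, was at 59.0 FPKM against 48.2 ± 2.84 FPKM (SD, n = 3; limma adjusted p = 0.452), in a kidney where other cells express it too. Irf4, a transcription factor of plasma cell development, was at 5.27 FPKM against 1.78, 1.45 and 1.15 FPKM and did not pass (1.36, limma adjusted p = 0.116). The median of the tested genes was 0.37. Tnfrsf17, the gene of this list left untested by the filter, was at 1.19 FPKM against 0, 0 and 0.13 FPKM. With antibody genes other than the 8 left out of the fit, Mzb1 (limma adjusted p = 0.0146) and Pou2af1 (0.0457) still passed, and Jchain and Derl3 (0.0832 for each), Tent5c and Cd79a (0.137 for each) and Ly6c2 (0.117) did not. Tent5c also missed the threshold when every library was given an equal FPKM total (0.0720).

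Genes of B cell identity and of the B cell receptor differed less. Of 15 identity genes 8 were tested and 0 were called, with a median of 0.19. Cd72, a surface protein of B cells that restrains receptor signalling, was at 14.3 FPKM against 14.8, 13.5 and 10.4 FPKM. Of 11 receptor signalling genes 7 were tested and 1 was called: Cd79a, a signalling chain of the receptor that plasma cells retain in part, at 6.69 FPKM against 1.34, 1.13 and 0.83 FPKM (1.88, limma adjusted p = 0.0422; 0.134 to 0.196 without a wild type library). Its partner Cd79b was at 5.37 FPKM against 2.80, 1.86 and 1.96 FPKM (limma adjusted p = 0.267).

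Of 15 genes of class switching 14 were tested and 0 passed the limma threshold, with a median difference of 0.0095. Of the cytokines and receptors that steer switching and B cell survival 10 of 15 were tested and 0 passed (median -0.069), with Tgfb1, a switch factor for IgA, at 13.3 FPKM against 17.2, 15.5 and 15.5 FPKM (limma adjusted p = 0.493). Of 12 Fc and other antibody-binding receptors 9 were tested and 0 passed (median -0.040). Among them Fcgrt, the receptor that recycles IgG, was at 54.3 FPKM against 51.6, 55.8 and 57.1 FPKM, and Fcgr3, an activating IgG receptor of myeloid cells, at 34.7 FPKM against 52.0, 35.3 and 48.1 FPKM.

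**Figure D5:**
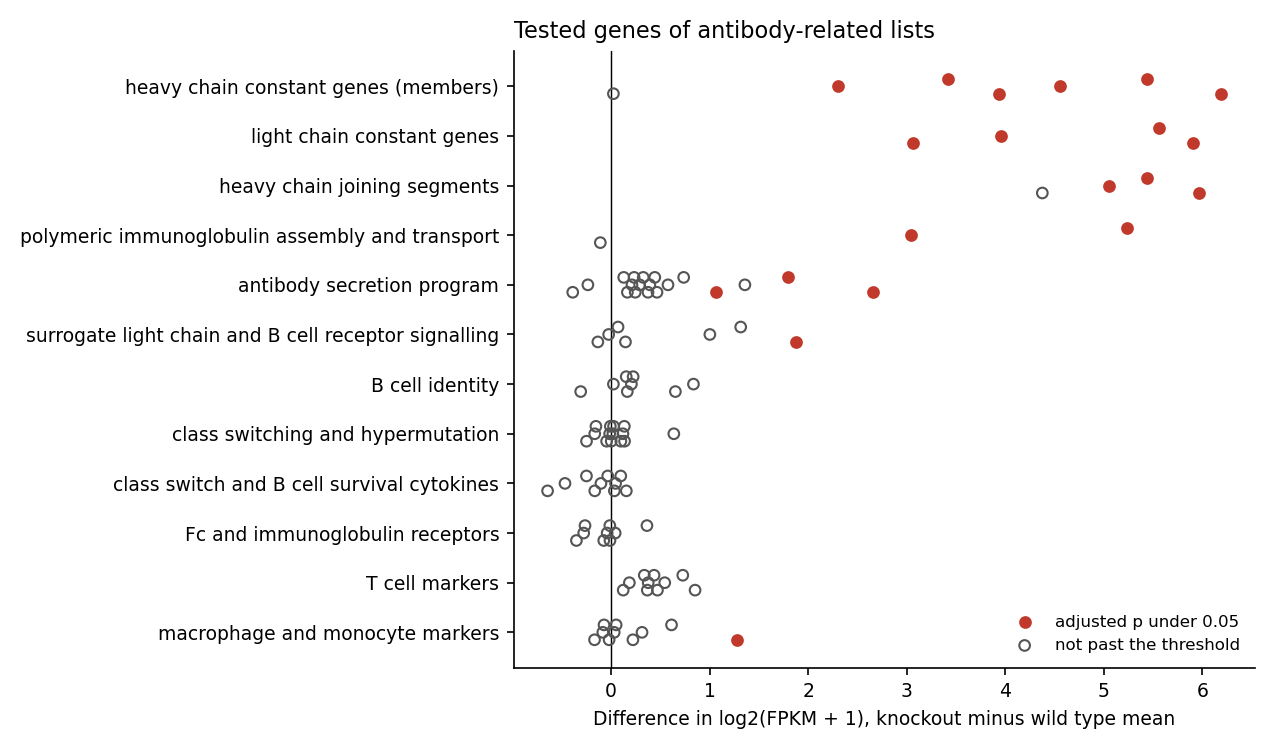
Difference in log2(FPKM + 1), knockout minus mean of wild type, for each tested gene of 12 lists; each point is a gene, filled where limma's adjusted p was under 0.05. Antibody chains, Jchain and Mzb1 lie at 3 and above apart from Ighm and Ighd, while the genes of switching, cytokines and Fc receptors lie around 0.

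Markers of other cells were set beside the antibody genes. T cell markers summed to 58.9 FPKM with the knockout and to 49.8, 40.2 and 34.2 FPKM without it; 9 of 10 lay above every wild type library, against 28.0% of tested genes, and 0 of 10 passed. Macrophage and monocyte markers summed to 1162 FPKM, inside the wild type range of 792 to 1259 FPKM, with 1 of 10 called (Ly6c2, at 7.44 FPKM against 2.52, 2.56 and 2.35 FPKM, limma adjusted p = 0.0275; 0.144 to 0.155 without a wild type library). Lyz2 was the largest part of the macrophage and monocyte sum, at 662 FPKM against 373 to 775 FPKM in wild type. Of those 10 markers 3 lay above every wild type library, against 28.0% of tested genes, and 0 below, against 31.2%. The sums of neutrophil and red cell markers also lay inside the wild type range. They were 30.0 FPKM against 17.0 to 82.1 FPKM and 184 FPKM against 138 to 412 FPKM, in that order. Lymphoid tissue stroma markers, 5 of 7 in the table, summed to 16.4 FPKM against 14.5 to 21.6 FPKM, with members on both sides of wild type and 0 of 3 tested passing. The chemokines Cxcl13 (1.69 FPKM against 0.36, 0.22 and 0.04 FPKM) and Ccl19 (5.80 FPKM against 3.99, 1.83 and 1.23 FPKM) were above every wild type library, while Ccl21a, the bulk of the sum, was below (8.02 FPKM against 9.53, 18.9 and 13.7 FPKM). The part of these markers in the antibody result was not tested.

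Likeness of profile was measured as the root mean square distance, over the 4 libraries, between a gene's centred log2(FPKM + 1) values and those of the summed constant FPKM. The 5 nearest genes other than the 8 were all variable or joining segments of antibody genes, at 0.042 to 0.17, with Igkv3-4 (0.042) first and Ighv9-1 (0.15), Ighj4 (0.17) and Ighv5-17 (0.17) among them. Outside the antibody loci they were Jchain (0.21), Slpi (0.61), a secreted protease inhibitor, Mzb1 (0.91), Pou2af1 (1.07) and Gm47283 (1.11). Of the 8 themselves Ighg2b (0.34) and Igha (0.36) lay nearest and Ighm (1.21) and Ighd (2.20) farthest. The distance is set mainly by the knockout library, and it describes these 4 libraries only. Ighv9-1 (36.23 FPKM against 0, 0 and 0) and Ighv5-17 (46.85 FPKM against 0.44, 0.61 and 0) passed the filter on low values only through the knockout library. Part of their likeness was thus built in.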

How the data were processed

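RNA was purified on oligo(dT) beads and sequenced, per the labels' protocols. The submitters' processing notes name cutadapt 1.9, FastQC, HISAT2 2.0.4 and build mm10, without roles, with the program and annotation behind the values not given in the sources used here. Values, as deposited, are FPKM per the file headers, written with 2 decimals. The fold change is a ratio made by the authors, deposited with its log2 value and with the authors' p-value and q-value from an unnamed test.

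The 16871 genes whose mean reached 0.5 FPKM were put on the scale log2(FPKM + 1), which understates changes of low genes. limma 3.58.1 in R 4.3.3 fitted genotype with a mean-variance trend, two-sided, with Benjamini-Hochberg adjustment over all tested genes and a threshold of 0.05. The 2 residual degrees of freedom come from the wild type libraries, whose spread the lone knockout library is taken to share. The fit was tested on simulated data. Sums, shares and ratios got no test. Members and gene lists were chosen with earlier results of these data known. Of listed genes, those past the test were named, or in lists with none some of those with the highest levels. Xbp1, Irf4, Sdc1, Hspa5, Tnfrsf17, Pigr, Cd79b, Ighj1 and Lyz2 were chosen after their values were seen. Alternatives were other pseudocounts, filters, scalings and a fit with no trend, each wild type library left out in turn, and other immunoglobulin genes left out. The deposited table has 0 value columns that belong to no labelled sample.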

Additional observations from a re-analysis of the deposited data

How the results depend on the processing

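The 6 heavy chain constant genes called higher became 1 with a pseudocount of 0.1 FPKM, 3 with no filter on low values (2 of the 6 and Ighe), 4 with quantile normalization, 5 with no trend, 2 with other immunoglobulin genes left out, and 2 to 3 without one wild type library. Over all genes, 122 calls became 39, 205, 112, 115, 6 and 45 to 73 under the same settings; the cause was not tested, beyond fewer samples in the last. These counts are not out of the same genes: 16871 were tested at the main setting, 31432 with no filter and 16702 with other immunoglobulin genes left out. The genes left out in that last fit included called ones such as Igkc. Directions held for the 6 genes under all 12 alternatives. All of these use the same knockout library, which lay far above every wild type library for these genes. A kept direction is therefore no replicate check. Ighd turned to -0.055 with the same FPKM total, -0.0067 with that total taken without immunoglobulin genes, -0.0011 with quantile normalization and lay between -0.17 and 0.15 without one wild type library (negative without replicate 3); Fcgrt lay between -0.054 and 0.018 (positive without replicate 2 or 3). The Ighm share difference (knockout minus wild type mean) of -27.3 percentage points was -24.0 when weighted by exonic length. That weighting took the Ighg2c share difference from 19.0 to 11.6 percentage points and the Igha share difference from 10.5 to 14.4. With Ighm and Ighd left out of the sum, the Igha share difference turned from 10.5 to -8.55 percentage points. The Ighg1 difference turned to -0.11 and the Ighe difference to -0.0028, while Ighg2c fell from 19.0 to 11.5 and Ighg2b from -0.71 to -3.25. The sum then loses 32.1% to 38.6% in wild type and 4.78% in the knockout library. Without one wild type library the Igha share difference lay between 3.68 (without replicate 3) and 16.5 (without replicate 1), the Ighe share difference lay between -0.0012 (without replicate 1 or 3) and 0.041, and the difference in log2 ratio of Ighg1 to Ighg2c between -1.36 and 0.078 (positive without replicate 2). The summed constant FPKM stayed between 4.98 and 5.21 above wild type on the log2 scale over 6 alternatives. No paired analysis was possible because the knockout group has 1 value column. Depth is unknown, so values near 0 FPKM have no counting limit.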
